A study of Mus musculus with 12 samples.

Results

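The genes described here belong to macrophage cholesterol and fatty acid handling. They are the liver X receptor (LXR) gene Nr1h3, the efflux genes Abca1, Abcg1 and Apoe, the uptake genes Lpl and Cd36, the fatty acid chaperones Fabp4 and Fabp5, and the lipid droplet genes Plin2 and Hilpda. The members were taken by symbol, through their Ensembl identifiers, as 10 of 37620 genes in the table, and all 10 passed the filter on low counts. They were chosen with earlier results of these data known. Counts of members set beside the share of all genes therefore do not test them as a set. RNA was sequenced from bone marrow-derived macrophages (BMDMs) of C57BL/6 mice in primary culture, taken on day 7. The 4 groups of 3 libraries are hypoxia-lactate (1% oxygen, 25 mM sodium lactate), hypoxia-NaCl (1% oxygen, 25 mM NaCl), normoxia-lactate (ordinary oxygen, 25 mM sodium lactate) and normoxia-NaCl (ordinary oxygen, 25 mM NaCl), so that every group carries an added sodium salt. The labels number the libraries 1 to 3 in each group and do not say whether they come from separate mice, so the p-values measure the spread between these libraries, which may be technical.

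LXR is a nuclear receptor that senses oxidised cholesterol. Together with its partner RXR it turns on genes that carry cholesterol out of the cell, among them Abca1, Abcg1 and Apoe, and macrophages that take up more lipid than they release store it in droplets and become foam cells. Droplets are coated by perilipins, Plin2 being the main one in macrophages. HILPDA is a small droplet protein made under low oxygen that inhibits adipose triglyceride lipase, and its gene is a known target of hypoxia-inducible factor (HIF).

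The sequences before the starts of Abca1 and Hilpda are shown because these genes had the largest differences between the oxygen levels without lactate and because they represent LXR-linked and HIF-linked control. Both come from RefSeq (GRCm38.p6), in which 6 of the 10 genes (Nr1h3, Abca1, Apoe, Cd36, Plin2 and Hilpda) had a promoter entry of 300 bases. For Abca1 the 250 bases before the start are given, at chr4:53159896-53160145 on the minus strand, with the capitals marking an E-box, CACGTG, and a repeat-like stretch.
Abca1: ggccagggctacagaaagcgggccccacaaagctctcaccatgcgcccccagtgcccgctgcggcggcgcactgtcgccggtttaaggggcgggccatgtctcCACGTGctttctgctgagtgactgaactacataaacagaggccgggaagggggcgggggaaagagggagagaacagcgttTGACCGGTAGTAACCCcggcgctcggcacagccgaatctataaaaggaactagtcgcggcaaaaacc
Read on the opposite strand, the second capital stretch (chr4:53159947-53159962) is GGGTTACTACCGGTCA, which matches AGGTCANNNNAGGTCA, the repeat form that LXR with RXR is known to bind, with 3 mismatches. Such a match, with up to 3 mismatches on either strand, was held by 21.9% of all 32851 promoter entries, and CACGTG by 7.15%. For Hilpda, 3 stretches of chromosome 6 (plus strand) before the start at 29272626 are given, with the capitals marking ACGTG or GCGTG, the core letters of a HIF site.
Hilpda at chr6:29272505-29272529: accgcgagccGCGTGctttccgtga
Hilpda at chr6:29272573-29272597: tggccagcggACGTGccccagggcg
Hilpda at chr6:29272608-29272625: ggttcggtacGCGTGcgc
At least 1 such core on either strand was held by 43.8% of all promoter entries, and at least 3 by 8.93%. A second Hilpda entry, with its start at 29272488, held 1 core. It is the same GCGTG as in the first Hilpda stretch above, and it lies after that earlier start. The Plin2 entry also held 3 matches, of which 2 are both strands of 1 CACGTG, an overlap that gives Abca1 its 2 matches as well. The entries of Nr1h3, Apoe and Cd36 held neither kind. A match describes letters only, and no binding was measured.

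The libraries held 22705978 to 49885085 reads counted in genes. Low oxygen was visible in the known target Egln3, an oxygen-sensing prolyl hydroxylase, at 127, 142 and 118 CPM (TMM-scaled reads of the gene relative to all reads counted in genes of that library) in hypoxia-lactate and 101, 101 and 129 CPM in hypoxia-NaCl, against 5.56, 7.90 and 5.09 CPM in normoxia-lactate and 3.15, 4.42 and 3.40 CPM in normoxia-NaCl. All 8 macrophage markers were detected, summing to 29796 to 49637 CPM. Of the 7 adipocyte markers none passed the filter, they summed to at most 0.207 CPM, and Lep, Plin1, Cfd and Cidea were at 0 in every library, so the Fabp4, Lpl and Cd36 reads described here came with next to no RNA of defining fat cell genes. Summed stromal markers were 45.6 to 98.0 CPM in hypoxia-lactate, 26.2 to 102 CPM in hypoxia-NaCl, 35.8 to 83.3 CPM in normoxia-lactate and 39.2 to 82.8 CPM in normoxia-NaCl, and their part in the results was not tested. Markers of neutrophils summed to 0.249 to 44.8 CPM, of dendritic cells to at most 4.74 CPM, of erythroid cells to at most 1.30 CPM and of lymphocytes to at most 0.464 CPM.

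Hypoxia-lactate library 3 stood apart from the other 11. It had at least 10 counts in 11437 genes, against 13198 to 14767 in the others, 0.486% of its reads in mitochondrially encoded genes, against 2.04% to 4.75%, and a median Spearman correlation with the other libraries of 0.906, against 0.966 to 0.987. Its TMM factor was 0.742, the lowest, with 0.864 in normoxia-NaCl library 1 next, which raised all its scaled values. In scaled CPM it was the highest library of its group for Abca1, Abcg1, Apoe, Lpl, Plin2, Fabp4 and Fabp5, and the lowest for Hilpda, Nr1h3 and Cd36. Without the scaling it was not the highest for Fabp4 or Fabp5. Leaving it out lowered the common biological coefficient of variation to 24.3%, against 38.2% with all 12 libraries. Results that rest on it are therefore given with and without it.

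In both media the hypoxia libraries held higher mean levels of Abca1 and Hilpda, by 3.30-fold and 2.03-fold without lactate, and of Abcg1, Plin2, Lpl and Apoe, by smaller amounts without lactate. They held lower mean levels of Nr1h3, Cd36, Fabp4 and Fabp5. Leaving out single libraries turned the direction of Apoe in both media and of Lpl without lactate. In RNA from whole cultures, fewer cells of a kind and less RNA per cell cannot be told apart. With all 12 libraries in 1 edgeR quasi-likelihood fit, none of the 10 passed an adjusted p of 0.05 in any of the 6 comparisons. In hypoxia without lactate (hypoxia-NaCl over normoxia-NaCl) 0.281% of the 14616 genes tested passed, and in hypoxia with lactate (hypoxia-lactate over normoxia-lactate) 0.226% passed. At an unadjusted p under 0.05, 5 of 10 were past it in hypoxia without lactate, 2 higher and 3 lower, beside 6.49% of all genes, and 5 of 10 in hypoxia with lactate, 3 higher and 2 lower, beside 14.6% of all genes. These counts do not test the 10 as a set, since the genes were chosen with earlier results of these data known. The median log2 fold change of the 10 was 0.08 in hypoxia without lactate, where that of all genes was 0.01, and 0.51 in hypoxia with lactate, where that of all genes was -0.03. Without hypoxia-lactate library 3 the second median was 0.01, beside -0.01 for all genes.

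**Figure D1:**
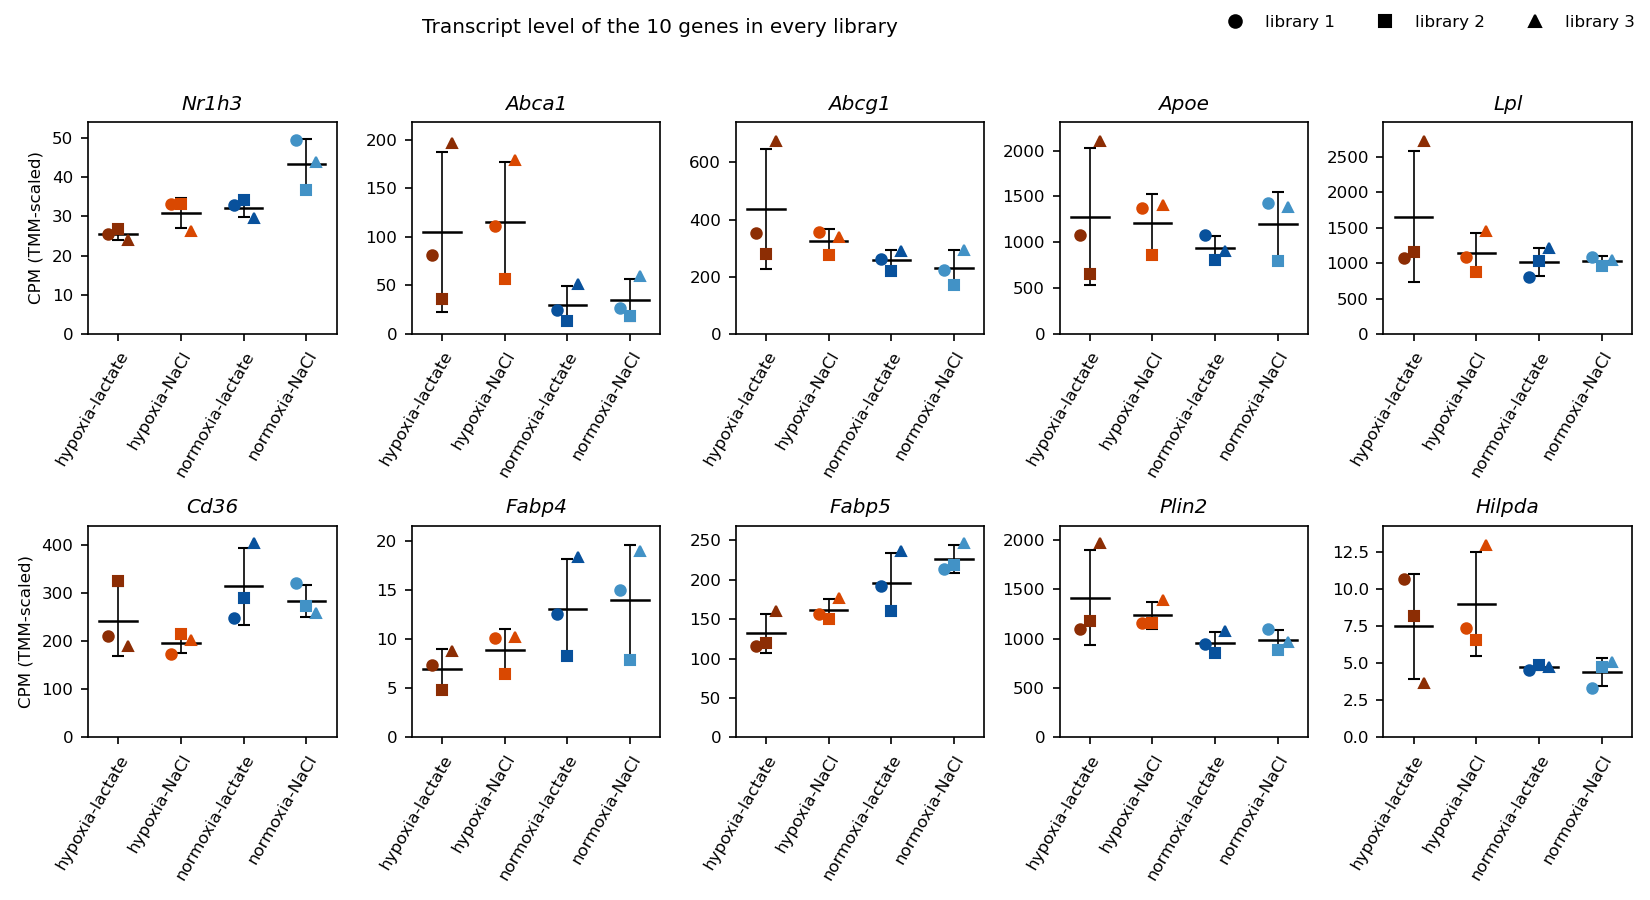
Transcript level of the 10 genes (CPM, TMM-scaled, linear axis from 0) in each library of the 4 groups, with marker shape for the library number, a line for the mean and bars for the SD over 3 libraries. Abca1 lies at 36.4 to 196 CPM in the 6 hypoxia libraries and at 13.1 to 59.6 CPM in the 6 normoxia libraries, and hypoxia-lactate library 3 (dark triangle) tops its group for Lpl and Apoe while it lies lowest for Hilpda.

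Nr1h3 (ENSMUSG00000002108) encodes LXR alpha, the receptor itself. Its level was 25.6, 26.7 and 23.9 CPM in hypoxia-lactate, 33.2, 33.1 and 26.3 CPM in hypoxia-NaCl, 32.9, 34.2 and 29.5 CPM in normoxia-lactate, and 49.4, 36.8 and 44.0 CPM in normoxia-NaCl. Each hypoxia group lay wholly below the normoxia group in the same medium, and normoxia-lactate lay wholly below normoxia-NaCl. The log2 fold change was -0.49 ± 0.19 (SE) without lactate and -0.34 ± 0.19 with lactate, with adjusted p-values of 0.670 and 0.419 in edgeR's quasi-likelihood test. In the GENCODE M21 annotation the exons of Nr1h3 overlap those of Gm13783 on the same strand, so counting may not have separated reads of these 2 genes fully. The annotation used for counting is not given, and the effect on these counts was not tested.

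Abca1 (ENSMUSG00000015243), the pump that loads cholesterol onto apolipoprotein A-I, showed the largest difference of the 10 in both media when all 12 libraries were used. Its level was 81.7, 36.4 and 196 CPM in hypoxia-lactate and 111, 56.6 and 179 CPM in hypoxia-NaCl. In normoxia-lactate it was 24.6, 13.1 and 51.2 CPM, and in normoxia-NaCl 26.8, 18.5 and 59.6 CPM. The hypoxia and normoxia groups overlapped in both media. Library 3 was the highest and library 2 the lowest in 4 of 4 groups. Within a number, hypoxia-NaCl stood at 4.14, 3.06 and 3.0 times normoxia-NaCl.

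The log2 fold change of Abca1 was 1.72 ± 0.66 without lactate (3.30-fold, adjusted p = 0.650) and 1.82 ± 0.67 with lactate (3.54-fold, adjusted p = 0.276) in edgeR's test. In hypoxia without lactate, where same-numbered libraries deviated together, the same test with the library number as a block gave 1.75 ± 0.20 and an adjusted p of 0.00933, so that Abca1 rose in that fit, in 3 of 3 number pairs, and again with hypoxia-lactate library 3 left out of it (1.74, adjusted p = 8.35e-05). The block was fitted to all groups at once, so its spread also draws on the lactate groups, where the numbers missed the limit for pairing. With all 12 libraries and the block Abca1 was the single one of the 10 to pass in hypoxia without lactate, beside 0.281% of all genes. With the block and without that library, Hilpda (adjusted p = 0.0408), Fabp5 (adjusted p = 0.0464) and Abcg1 (adjusted p = 0.0481) passed as well, 4 of 10 beside 5.08% of all genes. Without hypoxia-lactate library 3 and without a block, the value with lactate was 0.99 ± 0.59, a fit in which 1 group lacks the library number with the highest Abca1 level. Within numbers hypoxia-lactate stood at 3.32, 2.78 and 3.84 times normoxia-lactate, and the block without that library gave 1.55 ± 0.17 (adjusted p = 0.000466). With all libraries, number 3 missed the limit for pairing there (correlation 0.023, against 0.122 and 0.126 for the others). The pairing check was not repeated without hypoxia-lactate library 3. The E-box and the repeat-like stretch printed above belong to this gene, and what they do in these cells was not measured.

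**Figure D2:**
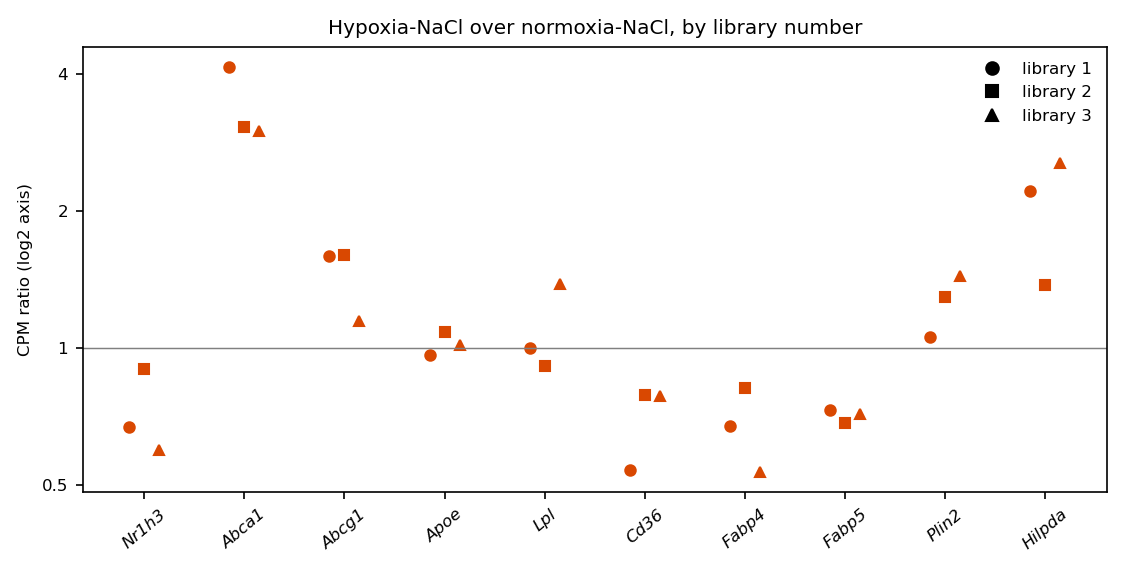
Ratio of CPM in hypoxia-NaCl over normoxia-NaCl (log2 axis, line at 1) within each library number, for the 10 genes. Abca1 ratios are 4.14, 3.06 and 3.0 and Hilpda ratios 2.22, 1.37 and 2.55, while Fabp5 ratios lie close together at 0.733, 0.687 and 0.718.

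Abcg1 (ENSMUSG00000024030), which passes cholesterol to high-density lipoprotein, had 353, 281 and 674 CPM in hypoxia-lactate, 356, 276 and 338 CPM in hypoxia-NaCl, 263, 221 and 290 CPM in normoxia-lactate, and 223, 172 and 295 CPM in normoxia-NaCl. The groups overlapped in both media, while hypoxia-NaCl was higher within every number, by 1.59, 1.61 and 1.15 times. Its log2 fold change was 0.49 ± 0.30 without lactate (adjusted p = 0.901) and 0.76 ± 0.30 with lactate (adjusted p = 0.304, edgeR), and the second was 0.29 ± 0.22 without hypoxia-lactate library 3. The value without lactate was 0.31 on leaving out normoxia-NaCl library 2, and 0.51 ± 0.14 (adjusted p = 0.0481) in the blocked fit without hypoxia-lactate library 3.

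Apoe (ENSMUSG00000002985), the lipoprotein that macrophages secrete with cholesterol, had 1079, 653 and 2102 CPM in hypoxia-lactate, 1377, 856 and 1406 CPM in hypoxia-NaCl, 1082, 807 and 909 CPM in normoxia-lactate, and 1426, 790 and 1379 CPM in normoxia-NaCl. The hypoxia-NaCl and normoxia-NaCl libraries nearly coincided number by number, with ratios of 0.966, 1.08 and 1.02. It gave a log2 fold change of 0.02 ± 0.38 without lactate and 0.45 ± 0.38 with lactate, and -0.11 ± 0.30 for the second without hypoxia-lactate library 3, which turned its direction. Among the 3 efflux genes the log2 fold changes without lactate were thus unlike in size, 1.72 for Abca1, 0.49 for Abcg1 and 0.02 for Apoe.

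Lpl (ENSMUSG00000015568), which frees fatty acids from lipoproteins, had 1080, 1161 and 2724 CPM in hypoxia-lactate, 1093, 873 and 1450 CPM in hypoxia-NaCl, 806, 1036 and 1210 CPM in normoxia-lactate, and 1093, 954 and 1046 CPM in normoxia-NaCl. All groups overlapped. Its log2 fold change was 0.14 ± 0.33 without lactate and 0.70 ± 0.33 with lactate, and 0.13 ± 0.23 for the second without hypoxia-lactate library 3. The value without lactate turned to -0.07 without hypoxia-NaCl library 3, and was 0.29 without hypoxia-NaCl library 2 and 0.08 without normoxia-NaCl library 2.

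Cd36 (ENSMUSG00000002944), a scavenger receptor that takes up oxidised lipoprotein and fatty acids, had 212, 326 and 190 CPM in hypoxia-lactate, 173, 215 and 204 CPM in hypoxia-NaCl, 249, 291 and 404 CPM in normoxia-lactate, and 321, 272 and 259 CPM in normoxia-NaCl. Hypoxia-NaCl lay wholly below normoxia-NaCl, whereas the lactate groups overlapped. The log2 fold change was -0.53 ± 0.24 without lactate (adjusted p = 0.763) and -0.37 ± 0.24 with lactate (adjusted p = 0.475, edgeR). The value with lactate was -0.64 without hypoxia-lactate library 2, -0.23 without hypoxia-lactate library 3 and -0.16 without normoxia-lactate library 3.

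Fabp5 (ENSMUSG00000027533), a cytosolic fatty acid carrier, measured 116, 120 and 160 CPM in hypoxia-lactate, 156, 150 and 177 CPM in hypoxia-NaCl, 192, 160 and 236 CPM in normoxia-lactate, and 213, 218 and 246 CPM in normoxia-NaCl. Hypoxia-NaCl lay wholly below normoxia-NaCl, and the lactate groups overlapped narrowly, at 160 CPM. The log2 fold change was -0.49 ± 0.19 without lactate (adjusted p = 0.670) and -0.57 ± 0.19 with lactate (adjusted p = 0.266, edgeR), and in the blocked fit without hypoxia-lactate library 3 the value without lactate was -0.49 ± 0.13 (adjusted p = 0.0464). Fabp5 has 5 processed pseudogenes at least 90% identical over their longest match, the closest being Gm6166 with 98.3% over 409 bases and up to 2239 counts in a library, so its counts are uncertain.

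Fabp4 (ENSMUSG00000062515), the carrier best known from fat cells and activated macrophages, was far scarcer. It had 7.36, 4.80 and 8.78 CPM in hypoxia-lactate, 10.1, 6.43 and 10.2 CPM in hypoxia-NaCl, 12.6, 8.34 and 18.4 CPM in normoxia-lactate, and 15.0, 7.85 and 19.0 CPM in normoxia-NaCl. The groups overlapped, but as for Abca1 library 3 was highest and library 2 lowest in 4 of 4 groups, in hypoxia-lactate only through the TMM scaling. Within numbers hypoxia-NaCl was 0.675, 0.819 and 0.536 times normoxia-NaCl. Its log2 fold change was -0.65 ± 0.41 without lactate and -0.91 ± 0.41 with lactate (adjusted p = 0.905 and 0.334, edgeR). These values were -0.36 on leaving out normoxia-NaCl library 3 and -0.60 on leaving out normoxia-lactate library 3.

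Plin2 (ENSMUSG00000028494), the droplet coat protein, had 1097, 1178 and 1971 CPM in hypoxia-lactate, 1164, 1157 and 1395 CPM in hypoxia-NaCl, 949, 855 and 1075 CPM in normoxia-lactate, and 1098, 892 and 967 CPM in normoxia-NaCl. Each hypoxia group lay wholly above the normoxia group in the same medium. The difference was small, with a log2 fold change of 0.33 ± 0.24 without lactate (adjusted p = 0.936) and 0.56 ± 0.24 with lactate (adjusted p = 0.315, edgeR), the second being 0.24 ± 0.18 without hypoxia-lactate library 3. A pseudogene, Gm12551, matches 259 bases of Plin2 at 96.1% and had at most 20 counts.

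Hilpda (ENSMUSG00000043421), the inhibitor of droplet lipolysis, was counted only 62 to 404 times a library. It had 10.7, 8.18 and 3.68 CPM in hypoxia-lactate, 7.40, 6.55 and 13.0 CPM in hypoxia-NaCl, 4.56, 4.90 and 4.73 CPM in normoxia-lactate, and 3.34, 4.77 and 5.10 CPM in normoxia-NaCl. Every hypoxia library except hypoxia-lactate library 3 exceeded every normoxia library. The log2 fold change was 1.02 ± 0.42 without lactate (2.03-fold, adjusted p = 0.697) and 0.67 ± 0.42 with lactate (1.59-fold, adjusted p = 0.467, edgeR), and 0.99 ± 0.30 (1.98-fold, adjusted p = 0.167) for the second without hypoxia-lactate library 3. In the blocked fit without that library the value without lactate was 0.98 ± 0.25 (adjusted p = 0.0408). On leaving out the highest library, it was 0.66 without lactate (without hypoxia-NaCl library 3) and 0.33 with lactate (without hypoxia-lactate library 1). The stretches printed above with 3 ACGTG or GCGTG cores lie before the later of this gene's 2 starts (29272626) and after the earlier one (29272488).

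Counting groups that did not overlap in hypoxia without lactate, Plin2 and Hilpda were higher and Nr1h3, Cd36 and Fabp5 lower, 5 of 10 beside 24.7% of all genes. In hypoxia with lactate Plin2 was higher and Nr1h3 lower, 2 of 10 beside 19.6% of all genes. These comparisons share no library.

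**Figure D3:**
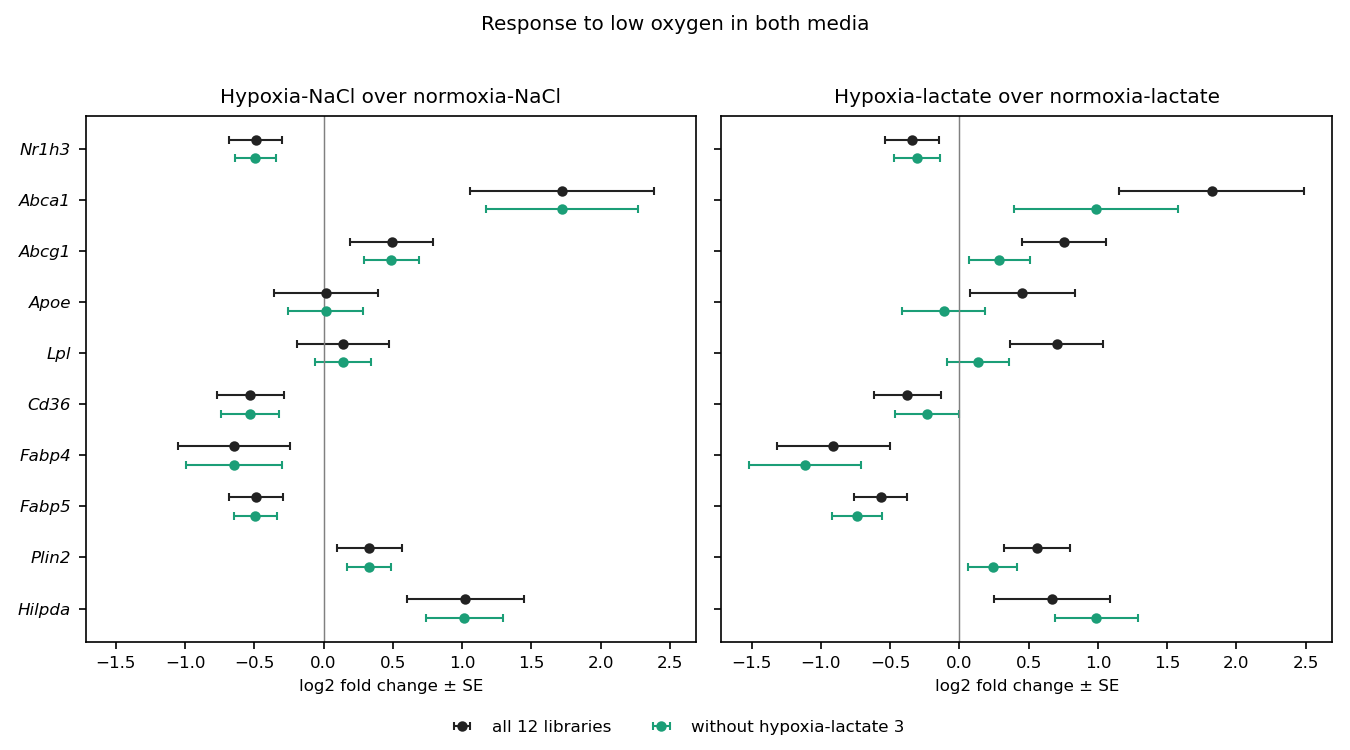
log2 fold change with its SE from edgeR for the 10 genes, hypoxia-NaCl over normoxia-NaCl on the left and hypoxia-lactate over normoxia-lactate on the right, with all 12 libraries (black) and without hypoxia-lactate library 3 (green). On the right, leaving out that library moves Abca1 to 0.99 (1.82 with it), brings Apoe below 0 and raises Hilpda to 0.99, while the left side stays nearly in place.

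Levels were also set per kb of annotated exon (GENCODE M21), with the exons of all transcripts of a gene merged. The merged length is at least that of any single transcript, and which transcripts were present was not measured. The order between genes is therefore approximate. On this scale the group means of Apoe were highest at 436 to 598 CPM per kb, followed by Plin2 at 273 to 403 and Lpl at 97.1 to 158 CPM per kb. Cd36 (54.9 to 87.6), Fabp5 (37.0 to 63.4) and Abcg1 (31.5 to 59.7) formed a middle range that overlapped. The lowest were Nr1h3 (10.1 to 17.3), Abca1 (2.86 to 11.1), Hilpda (3.99 to 8.14) and Fabp4 (1.56 to 3.11 CPM per kb). Without lactate, the genes with the largest differences between oxygen levels, Abca1 and Hilpda, were among the scarce ones on this scale, and Apoe, the highest on it, had the smallest.

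Taking both media together, the mean of the hypoxia groups over the mean of the normoxia groups gave a comparison added after the data were seen. None of the 10 passed in it in the filtered edgeR fit of all 12 libraries without a block, beside 1.38% of all genes, although 8 of 10 had an unadjusted p under 0.05, 4 higher and 4 lower, beside 15.2% of all genes. As the genes too were chosen with earlier results of these data known, that count does not test them as a set. Abca1 had a log2 fold change of 1.77 ± 0.47 (adjusted p = 0.0989), Fabp5 of -0.53 ± 0.14 (adjusted p = 0.0878), Nr1h3 of -0.42 ± 0.14 (adjusted p = 0.184) and Hilpda of 0.85 ± 0.30 (adjusted p = 0.205). Abca1 passed when no filter on low counts was set (adjusted p = 0.0355), and Abca1 (adjusted p = 0.000422) and Fabp5 (adjusted p = 0.0415) passed in edgeR with the library number as a block, 2 of 10 beside 1.59% of all genes. Without hypoxia-lactate library 3, Hilpda rose by 1.00 ± 0.20 (adjusted p = 0.0119) and Fabp5 fell by 0.62 (SE 0.12, adjusted p = 0.00897), as did Nr1h3 by 0.40 (SE 0.11, adjusted p = 0.0470), which makes 3 of 10 beside 7.59% of all genes. Abca1 was then at 1.35 ± 0.40 (adjusted p = 0.0581) and Fabp4 at -0.88 ± 0.27 (adjusted p = 0.0622).

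Lactate was asked about at each oxygen level, and none of the 10 genes passed the test at either. In normoxia no gene of the 14616 passed in edgeR (0%; 1.55% had an unadjusted p under 0.05), and DESeq2 called 5. The log2 fold changes of the 10 ran between -0.43 ± 0.19 for Nr1h3 and 0.17 ± 0.30 for Abcg1, with a median of -0.07, and Nr1h3 was the only one whose groups did not overlap, 1 of 10 beside 11.8% of all genes. In hypoxia no gene passed either (0%; 11.4% had an unadjusted p under 0.05, while DESeq2 called 118), and the 10 ran between -0.35 ± 0.41 for Fabp4 and 0.54 ± 0.33 for Lpl. No member's groups were apart there, beside 16% of all genes. Without hypoxia-lactate library 3, Abca1 had the largest difference in hypoxia at -0.96 ± 0.62 (adjusted p = 0.662) and Lpl stood at -0.02 ± 0.23.

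In the comparison of both treatments together (hypoxia-lactate over normoxia-NaCl), which shares its libraries with the comparisons above, Nr1h3 and Fabp5 both came close to the threshold at -0.77 ± 0.19 (adjusted p = 0.0707 and 0.0682, edgeR), and these were the 2 members whose groups did not overlap, beside 20.6% of all genes. None of the 10 passed, beside 1.61% of all genes. Without hypoxia-lactate library 3, Nr1h3 fell by 0.73 (SE 0.17, adjusted p = 0.0238), Fabp5 fell by 0.94 (SE 0.18, adjusted p = 0.00958) and Hilpda rose by 1.09 ± 0.30 (2.13-fold, adjusted p = 0.0483), 3 of 10 beside 6.86% of all genes. Abca1, at 1.58 ± 0.66 with that library (adjusted p = 0.202), was 0.76 ± 0.59 without it. A difference of the hypoxia effect between media was tested as an interaction, in which no gene passed (0%; 3.40% had an unadjusted p under 0.05, and DESeq2 called 1). The interaction was 0.10 ± 0.91 for Abca1 and -0.35 ± 0.59 for Hilpda on the log2 scale, SEs too large to show that the effect was alike in both media.

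The rest of the pathway was read through 4 lists. Of 18 LXR partners and other LXR targets 15 were tested, of 24 genes of droplet coat, storage and breakdown 20, of 18 PPAR receptor and uptake genes 16, and of 15 fatty acid oxidation genes 15. In hypoxia without lactate none of these passed with all 12 libraries, and the list medians were -0.05, -0.24, -0.28 and -0.09 in that order, where that of all genes was 0.01. In hypoxia with lactate none passed either, and the medians were 0.28, -0.14, -0.11 and 0.03, where that of all genes was -0.03.

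Over both media, 2 of the 66 listed genes tested passed with all 12 libraries, beside 1.38% of all genes. Gpat3, an acyltransferase of triglyceride synthesis, rose by 2.53 ± 0.54 on the log2 scale (adjusted p = 0.0420). It had 6.02, 9.75 and 3.03 CPM in hypoxia-lactate and 3.16, 5.77 and 4.95 CPM in hypoxia-NaCl, against 1.25, 2.09 and 0.556 CPM in normoxia-lactate and 0.0914, 1.37 and 0.489 CPM in normoxia-NaCl. Msr1, a scavenger receptor for modified lipoprotein, fell by 0.77 (SE 0.17, adjusted p = 0.0470). It had 68.7, 101 and 54.5 CPM in hypoxia-lactate and 87.5, 92.2 and 96.4 CPM in hypoxia-NaCl, against 103, 147 and 134 CPM in normoxia-lactate and 172, 179 and 120 CPM in normoxia-NaCl. Msr1 also fell with both treatments together, by 1.07 (SE 0.24, adjusted p = 0.0486). Each of these 3 calls was lost on leaving out 10 of the 12 libraries in turn, with adjusted p-values of up to 0.155 for Gpat3, and 0.153 and 0.161 for Msr1, while the direction held each time. The exceptions, which kept the call, were hypoxia-lactate library 3 for all, normoxia-NaCl library 2 for Gpat3 and hypoxia-lactate library 2 for Msr1.

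Without hypoxia-lactate library 3, more of the listed genes passed over both media, in a fit in which 7.59% of all genes passed. Among LXR genes Apoc2, the activator of lipoprotein lipase, rose by 0.77 ± 0.12 (adjusted p = 0.00253), Scd2, a fatty acid desaturase, rose by 0.46 ± 0.13 (adjusted p = 0.0448) and Mylip, which marks the LDL receptor for breakdown, rose by 0.37 ± 0.10 (adjusted p = 0.0474), whereas the LXR partner Rxra fell by 0.62 (adjusted p = 0.0329) and Mertk, a receptor for dying cells, fell by 0.78 (adjusted p = 0.0370), 3 higher and 2 lower of 15. Among droplet genes Gpat3 rose by 2.68 ± 0.46 (adjusted p = 0.00457), while the lipases Mgll (-1.21) and Nceh1 (-0.43) fell, 1 higher and 2 lower of 20. Mgll was scarce, at 0.415 to 2.55 CPM in hypoxia-lactate and 1.38 to 3.48 CPM in hypoxia-NaCl. In normoxia-lactate it had 3.20 to 7.88 CPM and in normoxia-NaCl 3.74 to 5.67 CPM. Among uptake genes the lipoprotein receptor Vldlr rose by 2.01 ± 0.36 (adjusted p = 0.00564) and Msr1 (-0.69), Scarb1 (-0.50) and Fabp3 (-1.32) fell, 1 higher and 3 lower of 16. Vldlr was near the floor, at 1.24 to 2.10 CPM in hypoxia-NaCl, 0.613 to 0.687 CPM in normoxia-lactate and 0.290 to 0.685 CPM in normoxia-NaCl. In hypoxia-lactate it had 4.23, 1.46 and 0.178 CPM, so the library left out was its lowest. In fatty acid oxidation Acads (-0.66) and Etfb (-0.63) fell, 2 of 15.

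Hypoxia-lactate library 3 held 7.71 CPM of Fabp3, 140 CPM of Acads and 115 CPM of Etfb, where the highest of the other 11 libraries, each time normoxia-NaCl library 1, held 3.75, 100 and 70.1 CPM. Normoxia-NaCl libraries 2 and 3 held 2.19 and 1.54 CPM of Fabp3, 73.9 and 72.8 CPM of Acads, and 39.6 and 38.2 CPM of Etfb. With hypoxia-lactate library 3 in the fit, Fabp3 stood at -0.08 ± 0.61, Acads at -0.24 ± 0.28 and Etfb at -0.01 ± 0.36. Scd2 had 63.6, 61.6 and 212 CPM in hypoxia-lactate, and stood at 0.88 ± 0.28 (adjusted p = 0.166) with that library. Mertk was at -0.52 ± 0.27 with it. For lactate Mertk stood farther from 0, at -1.29 ± 0.39 in normoxia and -0.81 ± 0.39 in hypoxia with all 12 libraries, neither past the test. The blocked edgeR fit without hypoxia-lactate library 3 gave -1.27 ± 0.22 in normoxia (adjusted p = 0.0405). There 43 of 15088 genes passed, and the numbers missed the limit for pairing. With both treatments together Mertk was at -1.57 ± 0.39 in edgeR with all 12 libraries (adjusted p = 0.0693). Without hypoxia-lactate library 3 it was at -2.08 ± 0.32 (adjusted p = 0.00314), where 6.86% of all genes passed. Of the 15 listed LXR genes 2 passed higher in that fit and 1, Mertk, lower. Vldlr, at 1.74 ± 0.57 with all 12 libraries, was at 1.12 without hypoxia-lactate library 1. Apoc2 had 76.5, 53.7 and 40.9 CPM in hypoxia-lactate and 66.4, 66.4 and 56.9 CPM in hypoxia-NaCl, against 46.4, 41.8 and 39.4 CPM in normoxia-lactate and 38.9, 29.3 and 31.3 CPM in normoxia-NaCl. Over both media without hypoxia-lactate library 3, it was the listed LXR target with the smallest adjusted p. It also passed in hypoxia without lactate when that library was left out (0.93 ± 0.16, adjusted p = 0.0124). Pparg, the receptor that drives Cd36 and Fabp4, stood at -0.32 ± 0.28 and Angptl4, an inhibitor of lipoprotein lipase and HIF target, at 0.18 ± 0.17 with all 12 libraries, neither past the test.

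**Figure D4:**
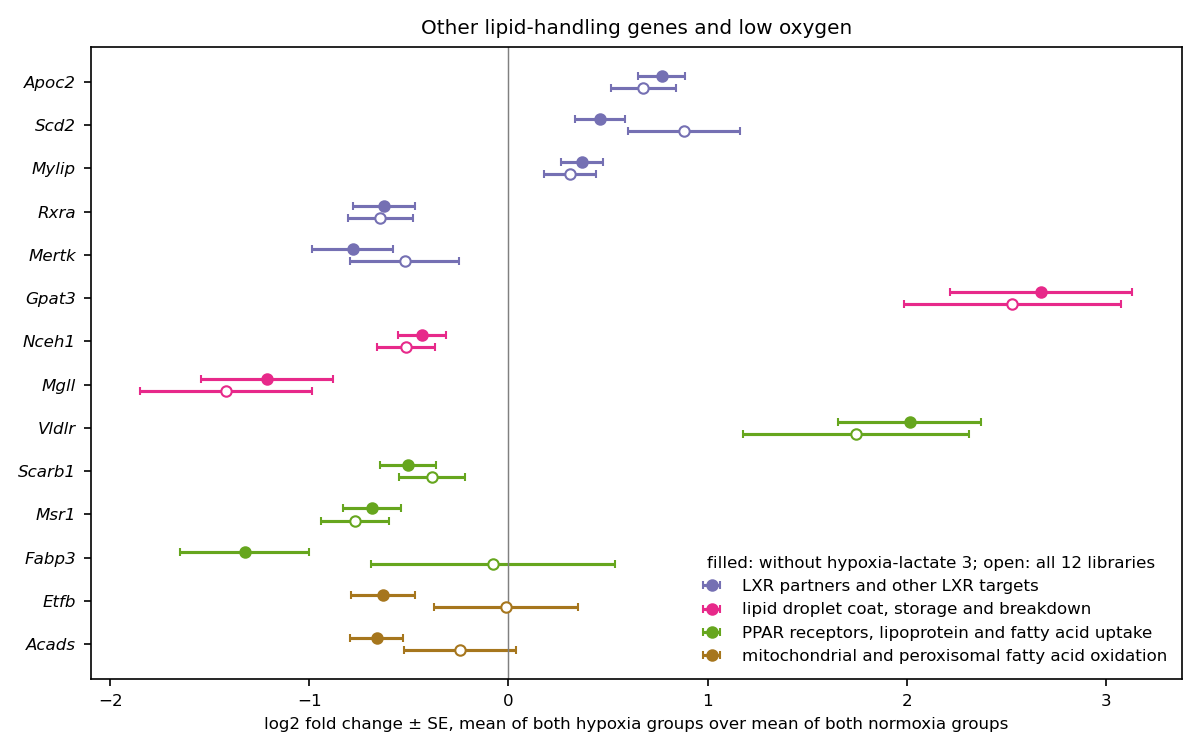
log2 fold change with its SE (edgeR), mean of both hypoxia groups over mean of both normoxia groups, for the listed genes that passed without hypoxia-lactate library 3 (filled points) and their values with all 12 libraries (open points), coloured by list. Gpat3 at 2.68 and Vldlr at 2.01 lie farthest to the right, and Fabp3 and Etfb shift most of those drawn when the library is included.

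The genes whose level ran most like Hilpda over the 12 libraries, by Pearson's r of log2 CPM, were Appl2 (0.96), Flrt2 (0.93), Gsdme (0.91), Slc37a4 (0.91) and Zswim6 (0.91). For Abca1 they were Pirb (0.97), Tanc2 (0.96), Frmd6 (0.94), Txnip (0.93) and Il6st (0.93). Within the 10, Fabp4 and Fabp5 ran together (r = 0.83, and 0.83 without hypoxia-lactate library 3), as did Abca1 with Abcg1 (0.86 and 0.86) and Abca1 with Plin2 (0.83 and 0.83), whereas Lpl with Plin2 was at 0.88 and at 0.62 without that library. The 12 points share the 4 groups and the 3 library numbers, so these values describe the libraries.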

How the data were processed

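Polyadenylated RNA was made into libraries with the Ion Total RNA-Seq Kit v2 and read on an Ion Proton, per the labels' protocols. The authors deposited a table of raw read counts by Ensembl gene. BWA, HTSeq and the mm9 build are named, without versions, in the submitters' processing notes. Sources used here give neither the strand setting nor the annotation release, which leaves overlapping genes and near-identical copies uncertain. A further 5 counters that name no gene were kept out. Reads outside genes made up 13.7% to 22.0% of a library, reads with several alignments 8.34% to 18.4%, unaligned ones 2.02% to 5.48%, ambiguous ones 0.361% to 0.442% and low-quality ones 0%.

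All comparisons came from 1 fit of the 12 libraries in edgeR 4.0.16 (R 4.3.3; quasi-likelihood F test, TMM, filterByExpr), adjusted by Benjamini-Hochberg over 14616 genes at 0.05. Each SE is the size of the log2 fold change divided by the root of its F statistic. Alternatives were RLE size factors, no filter, DESeq2 1.42.0, the library number as a block and leaving out each library. The 10 genes and the lists were chosen with earlier results of these data known, and the comparison over both media, and the block without hypoxia-lactate library 3, after seeing the data. Of each list the genes past the threshold were named, up to 6, with Egln3, Pparg and Angptl4 besides, the last 2 chosen after their values were seen. Likeness used genes of at least 5 CPM (prior count 2). Copies were found with blastn 2.17.0. Exon lengths and overlaps came from GENCODE M21 (GRCm38).

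Same-numbered libraries of hypoxia-NaCl and normoxia-NaCl deviated together from their group means (correlations 0.138 to 0.315, all above the limit of 0.1), and this check of the data, not the labels, is where the pairing comes from. In the other comparisons the lowest correlation was between -0.069 and 0.082. The block was fitted to all groups at once, so every blocked result, also in hypoxia without lactate, draws on groups that missed the limit.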

Additional observations from a re-analysis of the deposited data

How the results depend on the processing

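Leaving out 1 library at a time moved the number of genes called to 7 to 270 (hypoxia without lactate), 3 to 130 (hypoxia with lactate), 0 to 5 (lactate in normoxia), 0 to 6 (lactate in hypoxia), 67 to 1035 (both together) and 81 to 1145 (hypoxia over both media), the highest counts all without hypoxia-lactate library 3, and kept the interaction at 0. Of the 10 genes, 0 to 3 were called with both together and over both media, and 0 in the rest. Without hypoxia-lactate library 2, Abcg1 passed with both together (1.15, adjusted p = 0.0487) and Abca1 over both media (1.97, adjusted p = 0.0456). DESeq2, fitted to 21856 genes, called 148 genes in hypoxia without and 427 with lactate, 5 for lactate in normoxia and 118 in hypoxia, 1348 with both together, 1 for the interaction and 812 over both media, and of the 10 genes 2 with both together and 4 over both media. Without the filter 1 gene passed for lactate in normoxia, and 1 of the 10, Abca1, over both media (adjusted p = 0.0355). With the library number as a block, Abca1 passed in hypoxia with lactate (1.73, adjusted p = 0.0102), with both together (1.44, adjusted p = 0.00681) and over both media (1.74, adjusted p = 0.000422), and Fabp5 passed in the last 2 comparisons (adjusted p = 0.0301 and 0.0415), where the numbers missed the limit for pairing. The block thus called 1, 1, 2 and 2 of the 10 in hypoxia without and with lactate, both together and over both media. Beside these it called 41, 34, 335 and 232 of all 14616 genes. It turned Abca1 in the interaction (-0.020) and Apoe for lactate in hypoxia (-0.005). The block without hypoxia-lactate library 3 called 767 of 15088 genes in hypoxia without lactate (48.5% of them higher, against 95.1% with all libraries and no block), 261 with lactate, 43 and 16 for lactate in normoxia and hypoxia, 2116 with both together and 2211 over both media. Of the 10 genes it called 4 (Abca1, Abcg1, Hilpda and Fabp5) in hypoxia without lactate, 1 (Abca1) with lactate, 6 with both together and 6 over both media. It turned Apoe in hypoxia with lactate (-0.075), both together (-0.385), over both media (-0.024), the interaction (-0.101) and lactate in hypoxia (-0.411), Hilpda (0.265) and Plin2 (-0.055) for lactate in hypoxia, and in the interaction Abca1 (-0.187), Abcg1 (-0.113), Hilpda (0.139) and Plin2 (-0.019). Leaving out single libraries turned the direction of single genes for hypoxia without lactate, Apoe -0.22 to 0.197, Lpl -0.07 to 0.286. So it did for hypoxia with lactate, Apoe -0.114 to 0.771. So it did for lactate in normoxia, Abca1 -0.883 to 0.396, Abcg1 -0.01 to 0.39, Cd36 -0.073 to 0.289, Fabp4 -0.41 to 0.206, Hilpda -0.06 to 0.223, Lpl -0.161 to 0.123, Plin2 -0.123 to 0.054. So it did for lactate in hypoxia, Abca1 -0.963 to 0.319, Abcg1 -0.024 to 0.681, Apoe -0.481 to 0.405, Hilpda -0.583 to 0.108, Lpl -0.018 to 0.782, Plin2 -0.117 to 0.358. So it did for both treatments together, Apoe -0.465 to 0.404. So it did for the interaction, Abca1 -0.734 to 0.73, Abcg1 -0.2 to 0.521, Apoe -0.129 to 0.771, Cd36 -0.101 to 0.37, Fabp4 -0.567 to 0.05, Fabp5 -0.246 to 0.066, Hilpda -0.681 to 0.008, Lpl -0.007 to 0.807, Plin2 -0.088 to 0.4. So it did for hypoxia over both media, Apoe -0.049 to 0.385, Etfb -0.629 to 0.177, Fabp3 -1.325 to 0.183. The cause was not tested. RLE size factors changed no call of the 10. Over both media Etfb, near 0 with all libraries, turned to 0.034 with RLE size factors and with DESeq2. Depth limits Hilpda and Fabp4 most, with as few as 62 and 128 counts.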
